A study of Homo sapiens with 6 samples.

Results

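The genes described here are 10 immediate early genes, FOS, FOSB, FOSL2, JUN, JUNB, JUND, EGR1, IER2, ZFP36 and ZFP36L1, measured in HEK293 cells, a human embryonic kidney line. They were taken as every probe of the deposited intensity table whose target name is one of these symbols, which gave 1 probe for each gene, 10 of 48701 probes in all. One group of cells had been transfected with SNRK-pEGFPN3, which codes for human SNRK, a kinase related to AMP-activated protein kinase, fused to a green fluorescent protein, and is called SNRK. The other had received the parent plasmid pEGFPN3, which codes for the fluorescent protein alone, and is called GFP. Both groups were transfected with Lipofectamine and Plus Reagent and harvested for total RNA 48 hours later. Each group had 3 arrays, numbered 1 to 3 as in the labels. Separate cultures are not mentioned in the labels, and the p-values rest on a spread between arrays that could be technical alone. The share of cells that took up a plasmid is not given in the labels either.

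Immediate early genes are transcribed within minutes of a growth factor, stress or calcium signal, without new protein synthesis, and most of their transcripts decay fast. FOS and JUN proteins pair through leucine zippers to form AP-1, which binds DNA at TGANTCA sites. EGR1 is a zinc finger transcription factor of the same early wave. ZFP36 and ZFP36L1 act later in the life of a transcript, binding AU-rich elements in messenger RNA and recruiting deadenylases. All values here come from a single time, 48 hours after transfection.

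Of the 10 genes, 2 rose in SNRK cells (EGR1 and FOSB), 2 fell (ZFP36 and FOSL2), 5 did not pass the test and 1 (JUNB) was not detected on any array. The 9 measured genes were those whose detection p, the chance of so bright a signal among an array's negative controls, was under 0.01 on every array of one group or of both. A gene is said to have risen or fallen where its adjusted p was under 0.05 in limma, after background correction and quantile normalization, the p-values of all 14964 kept probes being adjusted together by the Benjamini-Hochberg method. By that rule 12.9% of all kept probes were called, 6.88% as risen and 6.06% as fallen. The 4 called genes were also the only ones of the 9 whose SNRK and GFP levels did not overlap, which held for 36.4% of all kept probes. These genes were chosen with earlier results of these data known, so their share of calls is a description. The median log2 change was -0.17 over the 9 genes and 0.00 over all kept probes.

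**Figure D1:**
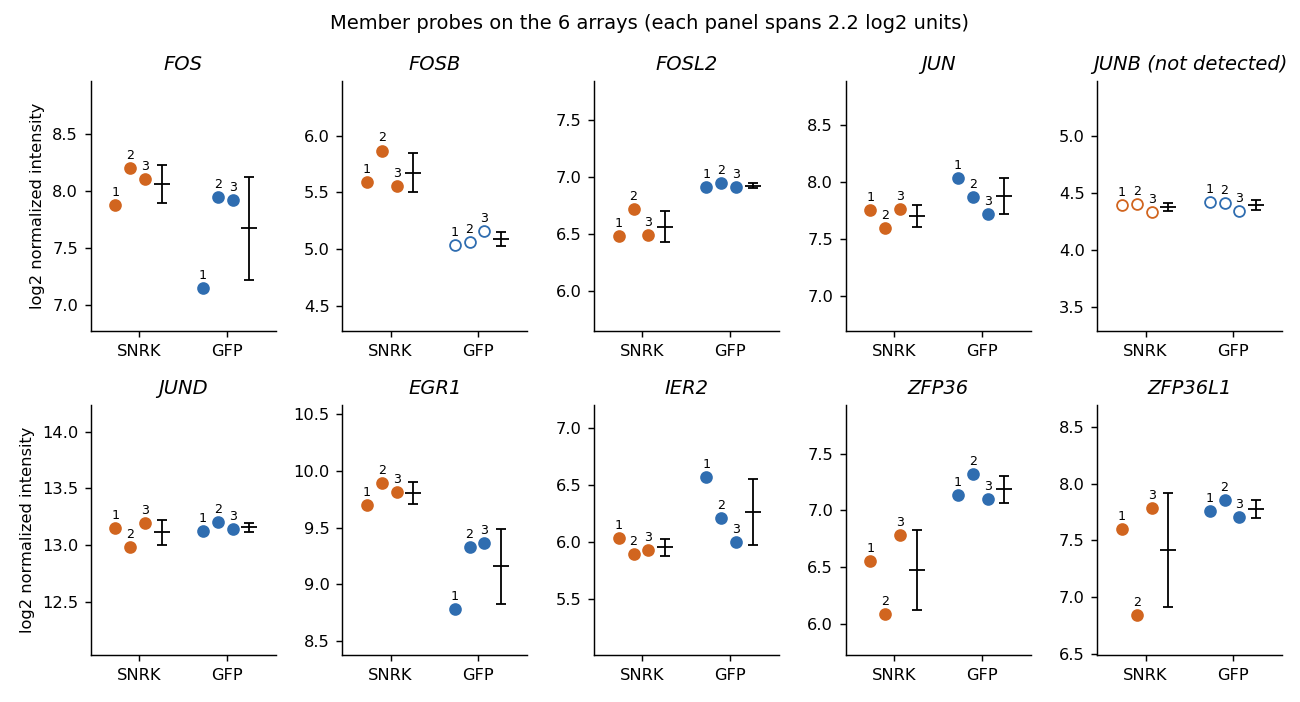
Log2 normalized intensity (y axis) of the 10 probes on each SNRK array (orange, left) and GFP array (blue, right), numbered by replicate. Filled points had a detection p under 0.01, open points did not, and the bars give the mean and SD of 3 arrays. The SNRK points lie above all GFP points for EGR1 and FOSB and below them for FOSL2 and ZFP36, and JUNB is open throughout.

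The median signal was 93.8 to 102 on the 6 arrays, and 15133 to 16190 probes were detected on each. Weights that limma estimated from how closely each array followed the fit ran from 0.46 for SNRK 2 and 0.56 for SNRK 3 to 2.38 for GFP 2. Signals of the SNRK probe were 485, 460.2 and 458 on the SNRK arrays, against 349.9, 382 and 372 on the GFP arrays, a 1.35-fold rise (adjusted p = 0.0219 in limma). Whether that probe reads the plasmid's transcript is not known here. Of 10 HEK293 genes (neurofilament, adrenal-neural and kidney genes), 7 were measured, NEFL, NEFM, INA, VIM, KRT8, KRT18 and SIX2, and PAX2, NEFH and DBH were not. SIX2, not detected on any GFP array, was the 1 of these that passed. Of 20 marker genes of fibroblasts, blood cells, endothelium and hepatocytes, COL3A1, HBA1, PECAM1, ALB and SERPINA1 were measured and none passed in limma (0 also at an unadjusted p under 0.05).

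EGR1 encodes a transcription factor that binds GC-rich promoter sites and whose own gene is switched on through serum response elements. Its signal was 887, 998 and 970.3 on SNRK arrays 1 to 3, against 528, 744 and 705 on GFP arrays 1 to 3. Every SNRK signal lay above every GFP signal, and GFP 1 stood lowest of the 6. After normalization the log2 level was 9.80 ± 0.10 in SNRK cells and 9.16 ± 0.33 in GFP cells (SD, 3 arrays each). EGR1 thus rose 1.56-fold, by 0.64 ± 0.16 SE on the log2 scale (limma adjusted p = 0.0335), and 4.50% of kept probes had a change of larger size. In RNA from a whole culture, more expressing cells and more RNA per cell cannot be told apart. The call was lost without GFP 1 (log2 change 0.45, adjusted p = 0.0700), GFP 2 (0.73, 0.0770), SNRK 1 (0.69, 0.0863) or SNRK 2 (0.60, 0.0855). It was lost also without the detection filter (adjusted p = 0.10), where 48701 probes share the adjustment.

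FOSB encodes a FOS family protein that must pair with a JUN protein to bind DNA. Its signal was 128, 141 and 119 on SNRK arrays 1 to 3, against 109.8, 104 and 106 on GFP arrays 1 to 3. The groups did not overlap, but all 6 signals were dim. Its detection p was 0 on each SNRK array, against 0.0487, 0.0385 and 0.0244 on GFP arrays 1 to 3, so that it was not detected on any GFP array at 0.01 and would be on all of them at 0.05. The measured log2 level was 5.67 ± 0.17 in SNRK cells and 5.09 ± 0.06 in GFP cells, a difference of 0.58 ± 0.10 SE (limma adjusted p = 0.0142). With the GFP arrays held at no less than their lowest detected level, the FOSB level in SNRK cells was 1.33-fold higher (log2 level 5.67 against 5.26). That figure is a point estimate under the background correction of the main fit (neqc, offset 16) and no minimum for other processing. With the maximum likelihood background model (offset 50) the log2 difference was 0.26 (limma adjusted p = 0.0277). The uncorrected signals averaged 129.5 in SNRK cells and 107 in GFP cells. FOSB was kept in the test only through the SNRK arrays, where it is high. The call was lost without GFP 1 (log2 change 0.56, adjusted p = 0.0678) or GFP 2 (0.57, 0.0677). Without background correction the log2 difference was 0.19, and it passed narrowly (adjusted p = 0.0477). In the authors' deposited processed values it was 0.10 and did not pass (adjusted p = 0.0877).

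ZFP36 encodes tristetraprolin, an RNA-binding protein that shortens the life of transcripts with AU-rich elements, including cytokine transcripts and its own. Its signal was 174, 151 and 181 on SNRK arrays 1 to 3, against 218, 233 and 204 on GFP arrays 1 to 3. Each SNRK signal lay below each GFP signal, with SNRK 2 the lowest. The log2 level was 6.47 ± 0.35 in SNRK cells and 7.19 ± 0.12 in GFP cells. ZFP36 fell 1.64-fold, with a log2 change of -0.71 ± 0.17 SE (limma adjusted p = 0.0306), and 3.26% of kept probes had a change of larger size. Without SNRK 2 the change was -0.52 and the call was kept (adjusted p = 0.0374). The call was lost without GFP 1 (-0.74, 0.10), GFP 2 (-0.64, 0.116), GFP 3 (-0.75, 0.0528) or SNRK 1 (-0.75, 0.0865), and without the detection filter (adjusted p = 0.0940). Without background correction the change was -0.39 (adjusted p = 0.0161), and in the authors' processed values -0.26 (adjusted p = 0.0322).

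FOSL2 encodes FRA2, a FOS relative that lacks the strong activation domain of FOS. Its signal was 169, 190.2 and 162 on SNRK arrays 1 to 3, against 197, 196 and 187 on GFP arrays 1 to 3. Before normalization the groups overlapped, SNRK 2 reading above GFP 3. After it they did not, with a log2 level of 6.56 ± 0.13 in SNRK cells and 6.92 ± 0.02 in GFP cells. FOSL2 fell 1.29-fold, and 17.7% of kept probes had a change of larger size. The fall was 0.36 ± 0.09 SE on the log2 scale (limma adjusted p = 0.0390). This was the least stable of the 4 calls, passing in 7 of 17 alternative fits. Of the 6 fits with 1 array left out, only that without SNRK 2 kept it (log2 change -0.44, adjusted p = 0.0229). It was lost without GFP 1 (adjusted p = 0.123), GFP 2 (0.135), GFP 3 (0.0679), SNRK 1 (0.123) or SNRK 3 (0.0637), with log2 changes of -0.37, -0.35, -0.37, -0.32 and -0.33 in that order. It was lost too with median scaling (-0.33, adjusted p = 0.0715), with trend and robust moderation (0.0522), without the detection filter (0.0805) and in the authors' processed values (-0.13, adjusted p = 0.0542). Without background correction the change was -0.19 (adjusted p = 0.0456).

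**Figure D2:**
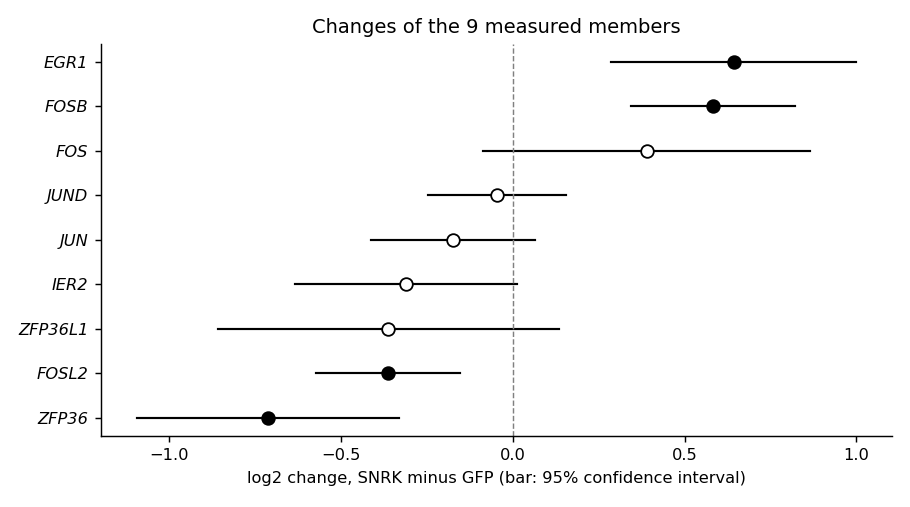
Log2 change, SNRK minus GFP (x axis), of the 9 measured genes with its 95% confidence interval from the limma fit. Filled points passed at an adjusted p under 0.05: EGR1 (0.64) and FOSB (0.58) on the right, FOSL2 (-0.36) and ZFP36 (-0.71) on the left.

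The 250 bases before the transcription start of the 4 called genes are shown because the serum response and AP-1 systems act on such sequences. They come from RefSeq (GRCh38.p14), 5′ to 3′ on the gene's strand, with matches to a searched motif in capitals. All lie on the plus strand: EGR1 at chr5:138465229-138465478, FOSB at chr19:45467746-45467995, FOSL2 at chr2:28392608-28392857 and ZFP36 at chr19:39406597-39406846.
EGR1: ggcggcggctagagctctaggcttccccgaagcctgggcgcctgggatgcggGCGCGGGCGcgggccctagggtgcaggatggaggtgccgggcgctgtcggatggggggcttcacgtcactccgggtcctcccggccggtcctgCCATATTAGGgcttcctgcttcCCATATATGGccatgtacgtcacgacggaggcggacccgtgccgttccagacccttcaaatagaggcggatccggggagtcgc
FOSB: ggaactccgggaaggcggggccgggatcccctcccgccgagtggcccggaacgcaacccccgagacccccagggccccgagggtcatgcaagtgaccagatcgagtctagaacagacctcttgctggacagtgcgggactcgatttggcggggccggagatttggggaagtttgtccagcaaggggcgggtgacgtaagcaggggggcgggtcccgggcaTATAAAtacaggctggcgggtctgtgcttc
FOSL2: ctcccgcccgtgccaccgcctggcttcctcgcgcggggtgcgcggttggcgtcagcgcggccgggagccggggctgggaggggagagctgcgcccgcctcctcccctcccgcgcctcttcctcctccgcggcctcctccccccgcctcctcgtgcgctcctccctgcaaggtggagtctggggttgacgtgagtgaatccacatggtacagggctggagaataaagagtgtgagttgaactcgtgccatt
ZFP36: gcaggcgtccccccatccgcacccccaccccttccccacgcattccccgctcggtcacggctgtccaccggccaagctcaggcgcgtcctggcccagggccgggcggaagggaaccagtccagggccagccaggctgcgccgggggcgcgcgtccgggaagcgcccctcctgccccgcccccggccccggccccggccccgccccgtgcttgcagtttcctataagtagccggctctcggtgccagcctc
Both strands were searched for the AP-1 site TGANTCA, the cAMP response element TGACGTCA, the EGR site GCGNGGGCG, the TATA sequence TATAAA and the CArG box, which the serum response factor binds. The capitals in EGR1 are GCGCGGGCG, an EGR site 198 to 190 bases before the start, and the CArG boxes CCATATTAGG (105 to 96 bases) and CCATATATGG (83 to 74 bases). The capitals in FOSB are a TATA sequence 30 to 25 bases before the start. The windows of ZFP36 and FOSL2 held none of these letters.

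All 10 genes had a promoter entry, and ZFP36L1 had 2. The EGR1 window alone held a CArG box, which 1.16% of 35116 RefSeq windows of this length hold, and it alone held the EGR site, which 8.41% hold. Sequence outside the 250 bases was not searched, so sites farther from the start are not counted for any gene. TATAAA stood in the windows of FOS, FOSB and JUNB (10.7% of all windows) and TGACGTCA in those of JUND and 1 of the 2 of ZFP36L1 (1.65%). TGANTCA was found in 0 of the 11 windows and in 6.57% of all. Of the 10 genes, 5 lie on chromosome 19 (FOSB, JUNB, JUND, IER2 and ZFP36).

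FOS encodes the best known partner of JUN in AP-1 and, like EGR1, is a target of the serum response factor. Its signal was 310.4, 375 and 343 on SNRK arrays 1 to 3, against 219, 328 and 307 on GFP arrays 1 to 3. The groups overlapped, since SNRK 1 read below GFP 2, and GFP 1 was the lowest array for FOS as it was for EGR1. The log2 level was 8.06 ± 0.17 in SNRK cells and 7.67 ± 0.45 in GFP cells. The change of 0.39 (95% confidence interval -0.09 to 0.87) did not pass (limma adjusted p = 0.239), and without GFP 1 it was 0.13 (adjusted p = 0.579).

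JUN encodes the AP-1 subunit that can also pair with itself. Its signal was 291, 279 and 284 on SNRK arrays 1 to 3, against 345, 314 and 278 on GFP arrays 1 to 3. GFP 3 read below all SNRK arrays and the others above them, so the groups overlapped. The log2 change was -0.17 (95% confidence interval -0.41 to 0.07, limma adjusted p = 0.292).

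JUND encodes the JUN protein that is typically present in resting cells. Its signal was 8922, 8123 and 9829 on SNRK arrays 1 to 3, against 9389.9, 9629 and 8899 on GFP arrays 1 to 3. The highest and the lowest reading both came from SNRK cells. The log2 change was -0.05 (95% confidence interval -0.25 to 0.16, limma adjusted p = 0.758), the narrowest interval among the 9 genes, and without SNRK 2 it was 0.02 (adjusted p = 0.922).

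JUNB encodes a weaker activator that can oppose JUN. Its signal was 88.5, 88.8 and 78.6 on SNRK arrays 1 to 3, against 88.6, 82.5 and 77.4 on GFP arrays 1 to 3. These are signals of the array background, with a detection p of 0.720 to 0.888 on SNRK arrays and 0.694 to 0.877 on GFP arrays. No fold is given for JUNB. This probe does not show whether the transcript was absent, since its position in the transcript was not examined.

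IER2 encodes a small nuclear protein of the early response. Its signal was 146, 142 and 133 on SNRK arrays 1 to 3, against 171, 145 and 133 on GFP arrays 1 to 3. The groups overlapped and GFP 1 read highest. The log2 change of -0.31 (95% confidence interval -0.63 to 0.01) did not pass (limma adjusted p = 0.174). It was -0.15 without GFP 1 and -0.44 without GFP 3 (adjusted p = 0.452 and 0.0662), and -0.14 without background correction.

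ZFP36L1 encodes a close relative of ZFP36 with the same kind of RNA-binding zinc fingers. Its signal was 270.1, 200.1 and 288 on SNRK arrays 1 to 3, against 297, 312 and 275 on GFP arrays 1 to 3. SNRK 3 lay within the GFP range, and SNRK 2 stood below all others, as it did for ZFP36. The log2 change was -0.36 (95% confidence interval -0.86 to 0.13) and did not pass (limma adjusted p = 0.290). Without SNRK 2 it was -0.08 (adjusted p = 0.670), and without SNRK 3 it was -0.55 (adjusted p = 0.0962).

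**Figure D3:**
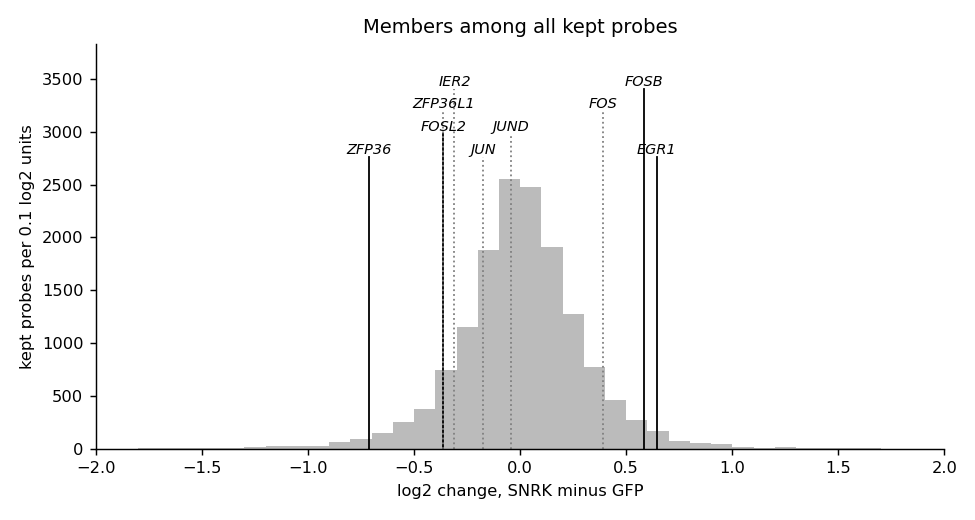
Number of kept probes per 0.1 log2 units (grey bars) by their log2 change, SNRK minus GFP, over the range -2 to 2, with 19 of 14964 probes outside it. Solid lines mark the 4 called genes and dotted lines the other 5 measured ones. ZFP36, EGR1 and FOSB lie in the sparse flanks, where 3.26%, 4.50% and 6.03% of kept probes have changes of larger size, whereas JUND lies near the centre. For FOSL2, the other called gene, 17.7% of kept probes have changes of larger size, against 15.3% for FOS and 17.8% for ZFP36L1, which were not called.

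Among the 3 FOS family genes FOSB rose, FOSL2 fell and FOS did not pass. Neither JUN nor JUND passed in limma, at an adjusted or an unadjusted p under 0.05. Of the pair of ZFP36 genes, ZFP36 fell and ZFP36L1, with a change of the same sign, did not pass. A pair of arrays stood at the extreme for several genes. GFP 1 gave the lowest normalized level of EGR1, FOS and FOSB and the highest of IER2 and JUN. SNRK 2 gave the highest of EGR1, FOS and FOSB and the lowest of ZFP36, ZFP36L1, JUN, JUND and IER2, an extreme for 8 of the 9 measured genes. The part of these arrays in the results beyond the values without them was not tested.

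**Figure D4:**
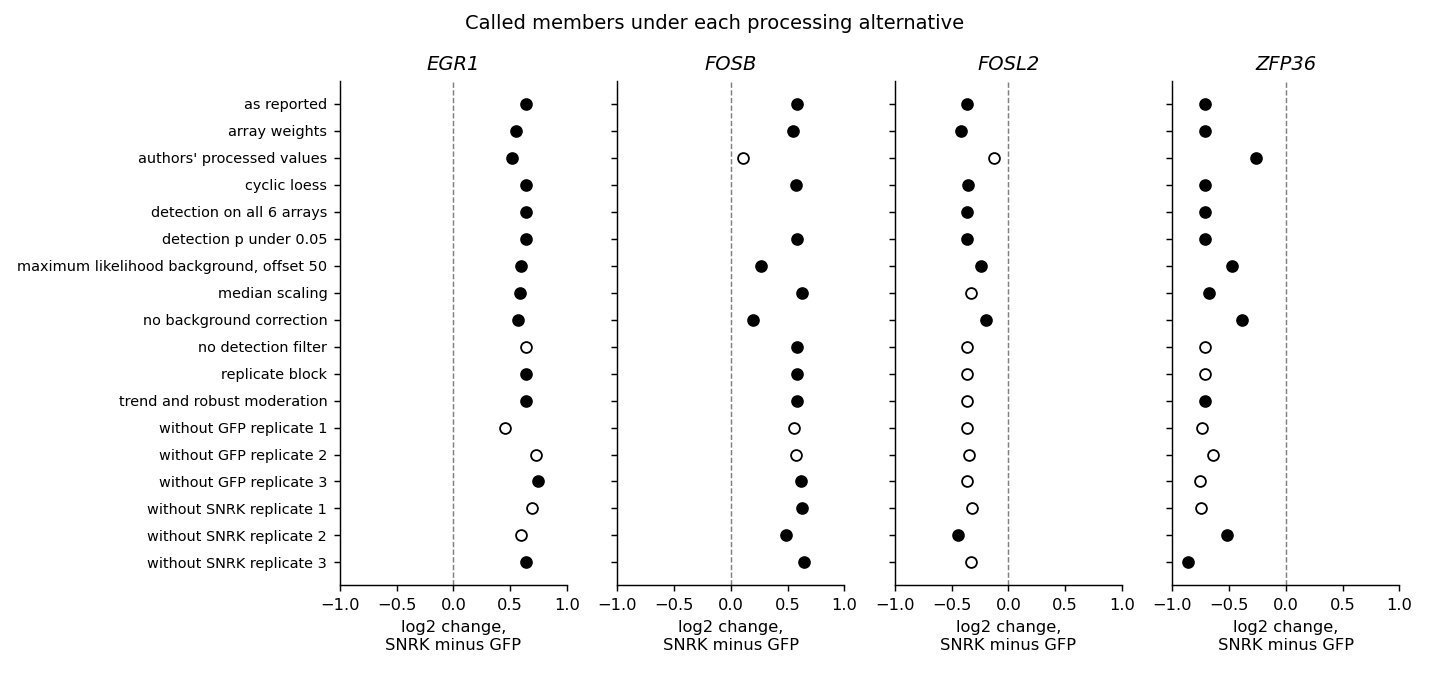
Log2 change, SNRK minus GFP (x axis), of EGR1, FOSB, FOSL2 and ZFP36 as reported and in each alternative fit (rows), filled where the adjusted p was under 0.05. The sign was the same in every fit shown. FOSB has no point for detection on all 6 arrays, which removes it, and the points without GFP 1 or without GFP 2 are all open.

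Leaving out an array moved the calls of the whole table as well as those of these genes. Without GFP 1, 0 of the 9 genes passed in limma and 2.29% of all kept probes did. At an unadjusted p under 0.05 these were 4 genes and 3257 of 14964 probes. Without GFP 2, 0 genes passed, against 1.94% of all kept probes (unadjusted, 5 genes and 3415 probes). Without SNRK 1, FOSB alone passed, against 2.81% of all, and without GFP 3 EGR1 and FOSB passed, against 12.4%. Without SNRK 2, FOSB, FOSL2 and ZFP36 passed (7.36% of all), and without SNRK 3 EGR1, FOSB and ZFP36 did (18.1%).

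Among the other alternatives, all 4 genes passed with cyclic loess (13.2% of all kept probes), with a detection limit of 0.05 (10.6%), with array weights (28.5%), with the maximum likelihood background model (17.3%) and without background correction (17.2%). EGR1, FOSB and ZFP36 passed with median scaling (13.2% of all) and with trend and robust moderation (18.2%). EGR1, FOSL2 and ZFP36 passed where detection on all 6 arrays was required (13.6%), a rule that leaves FOSB out. EGR1 and ZFP36 passed in the authors' processed values (14.9%), and FOSB alone passed without the detection filter (1.37%). With the replicate number as a block EGR1 and FOSB passed (4.89% of all), and ZFP36 and FOSL2 did not (adjusted p = 0.0675 and 0.0878).

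For each called gene, the 3 named genes were found whose level moved most like it over the 6 arrays, among 10424 genes at their brightest kept probe. Likeness was the root mean square difference of log2 levels, each centred on its own mean. For EGR1 these were MYH14, FKBP1A and MAP2K2, which encodes the kinase MEK2 of the ERK pathway, with differences of 0.08, 0.09 and 0.09 against a variation of 0.38 in EGR1 itself. For FOSB they included GRK6 and PABPN1, with 0.02 and 0.03 against 0.31. For ZFP36 they were XAB2, TMEM25 and TXN2, at 0.06, 0.06 and 0.07 against 0.42. For FOSL2 they were ZFHX3, PPP3CC and TSPYL6, at 0.04 each against 0.20. With 6 arrays in 2 groups, many genes of like change come this close, and the match is a description.

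Genes around these 10 were read from 9 lists. Of 122 listed genes that were measured, 8 rose and 9 fell (13.9%), close to the 13.2% of all 10425 named genes that passed (7.41% risen and 5.75% fallen). Their median log2 change was -0.03, against 0.00 for all named genes. The count was 2 without GFP 1, 1 without GFP 2, 15 without GFP 3, 2 without SNRK 1, 7 without SNRK 2 and 29 without SNRK 3. At an unadjusted p under 0.05 in limma, 40 of the 122 listed genes and 4657 of the 14964 kept probes passed. The unadjusted counts below are to be read beside that share. Over every kept probe of the listed genes, 22 of 151 probes passed as adjusted, 12 risen and 10 fallen. Changes below are log2 changes at the brightest kept probe of a gene, with limma adjusted p-values.

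Of 8 other AP-1 subunits and partners, 1 rose and 1 fell. MAFG, a small MAF protein that pairs with other basic leucine zipper factors, rose by 0.83 ± 0.21 SE (adjusted p = 0.0362), and BATF3, a JUN partner, fell by 0.32 (adjusted p = 0.0464). The median of this list was -0.07. Of 3 EGR relatives and corepressors measured, 0 passed in limma (1 higher and 1 lower at an unadjusted p under 0.05). WT1, a zinc finger factor that binds EGR-like sites, came nearest, with 0.29 (adjusted p = 0.0825).

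Of 13 serum response and cAMP response factors, 2 rose and 0 fell (2 higher and 2 lower at an unadjusted p under 0.05), with a median of -0.13. MRTFA, an actin-regulated coactivator of the serum response factor, rose by 0.55 ± 0.09 SE (adjusted p = 0.0120). CRTC1, a coactivator of CREB, rose by 0.55 ± 0.13 SE (adjusted p = 0.0288). Of 19 kinases and ligases that act on JUN and FOS, 0 rose and 3 fell (2 higher and 5 lower at an unadjusted p under 0.05), with a median of -0.02. RPS6KA1, the kinase RSK1 downstream of ERK, fell by 0.48 (adjusted p = 0.0337). CSNK2A1, a casein kinase gene, fell by 0.35 (adjusted p = 0.0413) and had 0.12 at its other probe (adjusted p = 0.346).

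Of 33 other immediate early genes, 1 rose and 1 fell, 6.06% in all, with a median of -0.02. BTG2, an antiproliferative gene, rose by 0.36 and the stress phosphatase subunit gene PPP1R15A fell by 0.63 (adjusted p = 0.0265 and 0.0172).

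Of 20 factors of AU-rich element decay, 2 rose and 2 fell, with a median of -0.02. CNOT3, a subunit of the CCR4-NOT deadenylase that ZFP36 recruits, rose by 0.89 ± 0.14 SE (adjusted p = 0.00899). CNOT1, the scaffold of the same complex, fell by 0.59 ± 0.09 SE at its brightest probe (adjusted p = 0.00765) and had -0.55 and 0.21 at its other probes (adjusted p = 0.0694 and 0.418). The decapping cofactor gene EDC3 fell by 0.41 (adjusted p = 0.0412). TIAL1, an RNA-binding protein gene, rose by 0.62 (adjusted p = 0.0127) and by 0.66 at another probe (adjusted p = 0.00769), but fell by 0.62 at a further one (adjusted p = 0.0203), so that its direction depends on the probe.

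Of 26 AU-rich transcripts that ZFP36 is known to bind, 12 were measured, of which 1 rose and 1 fell, with a median of -0.05. The chemokine gene CXCL1 fell by 0.47 (adjusted p = 0.0185) and the cell cycle factor gene E2F1 rose by 0.38 (adjusted p = 0.0453). Of 11 AP-1 target genes, 0 rose and 1 fell (0 higher and 1 lower at an unadjusted p under 0.05), with a median of -0.05. CDKN2A, a cell cycle inhibitor gene, fell by 0.59 (adjusted p = 0.0364) and had 0.03 and 0.14 at its other probes (adjusted p = 0.925 and 0.301). Of 10 EGR1 target genes, 1 rose and 0 fell (3 higher and 2 lower at an unadjusted p under 0.05), with a median of -0.04.

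**Figure D5:**
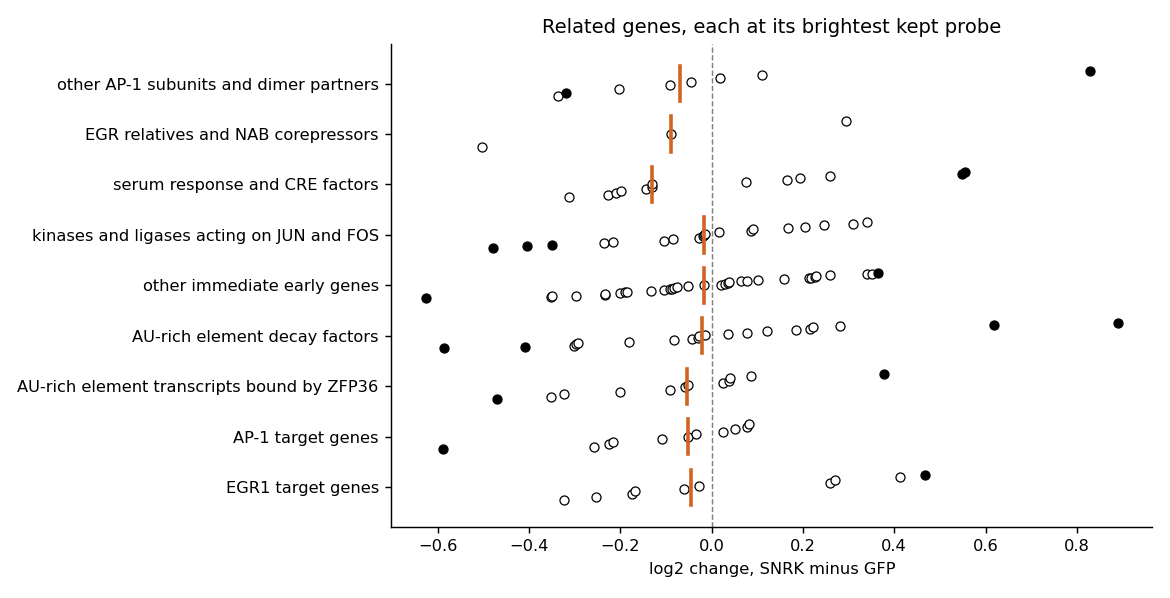
Log2 change, SNRK minus GFP (x axis), of each measured gene of the 9 lists (rows) at its brightest kept probe, filled where the adjusted p was under 0.05, with the list median as an orange bar. Medians lie between -0.13 and -0.02, and 17 genes are filled.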

How the data were processed

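Biotinylated cRNA was made from total RNA and read on Illumina bead arrays, per the labels' protocols. The authors deposited 48701 probes with, for all 6 arrays, a linear intensity that is not normalized and a detection p-value, per the file headers and values. The submitters' processing notes name lumi without a version, and what was done with it is not stated there. A second deposited table holds the authors' processed intensity as whole numbers on a linear scale, not centred, with a median of 170 on every array. It ranked the probes almost as the signals did (Spearman correlation 0.9997), and its normalization method stays unknown.

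Intensities were processed with neqc (offset 16, background estimated through the detection p-values) in limma 3.58.1 under R 4.3.3, which corrects background, quantile-normalizes and takes log2. The 14964 probes with a detection p under 0.01 on every array of one group or of both were kept. SNRK was compared with GFP with lmFit and eBayes, two-sided, and p-values were adjusted by the Benjamini-Hochberg method across the kept probes. Depth has no counterpart on arrays, where the number of arrays limits the precision.

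Target names were updated with the gene table of RefSeq GRCh38.p14, used for names, which gave 23207 probes a gene name. ZFP36L2, CRTC3, SIK1 and CNOT11 had no matched probe and were not analysed here. The 10 genes and all lists were chosen with earlier results of these data known. Named are all 10 genes, from each list the called genes with the smallest p (up to 4, or the 1 with the smallest p where none passed), and for each called gene the 3 of most like pattern. A few genes that this rule names are not reported here. The replicate numbers were not taken as pairs in the main fit. Deviations of same-numbered arrays from their group means correlated at -0.06, -0.13 and -0.30. Among differently numbered arrays, SNRK 2 with GFP 3 gave 0.29 and SNRK 3 with GFP 1 gave 0.27, the others lying from -0.21 to 0.09. These values do not settle whether any arrays were paired. Alternatives were other background corrections, normalizations, detection filters and moderation, array weights, the replicate number as a block, the authors' processed values and each array left out.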

Additional observations from a re-analysis of the deposited data

How the results depend on the processing

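Of the 17 alternatives, EGR1 passed in 12, ZFP36 in 11 and FOSL2 in 7, and FOSB in 13 of the 16 that could test it, each with its sign kept. JUND alone changed sign (0.0176 without SNRK 2), its fits with 1 array left out running from -0.0869 to 0.0176. With 1 array left out, the number of the 10 genes called ran from 0 to 3, of listed genes from 1 to 29 and of all probes from 291 to 2712. Calls of all probes were 4266 with array weights, 669 without the detection filter and 731 with the replicate block. Listed genes gave 40, 6 and 5 under the same settings in that order. Of the 10 genes, 2 were called in the authors' processed values, 1 without the detection filter and 2 with the replicate block. With the block the log2 changes of these genes were the same as reported, and 6 had an unadjusted p under 0.05 in limma, against 4 as reported. Of all 14964 kept probes, 3937 had such a p with the block, against 4657 as reported. The reason for the block's fewer calls was not tested. No background correction shrank the changes of the dim probes FOSB, FOSL2, ZFP36 and IER2, while EGR1 kept 0.57. Signals of FOSB and IER2 close to background limit their folds. The folds of ZFP36 and FOSL2 also depend on the processing, their log2 changes being -0.71 and -0.36 as reported. They were -0.39 and -0.19 without background correction, and -0.26 and -0.13 in the authors' processed values.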
